A study of Arabidopsis thaliana with 20 samples.

Results

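In Arabidopsis plants that carry a hairpin RNA with G:U wobble pairs against EIN2, nearly all small RNAs of the hairpin fell into 2 classes, sense reads assigned to the GU stem, whose sequence was changed so that wobble pairs form, and antisense reads assigned to the unchanged WT stem. The reads described here are the small remainder. They are sense reads on the WT stem, called cross-stem sense reads, and antisense reads on the GU stem, called cross-stem antisense reads, at lengths from 18 to 25 nt. The remainder held 11758 of 2278609 stem reads in the 8 G:U libraries, 8990 sense and 2768 antisense. The 2 large classes are called main-stem reads. These names follow where the reads of each strand lay in the tables, since no label states which arm was changed.

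All libraries were made from total RNA of whole plants at 3 weeks of ecotype Columbia, and every plant carried an EIN2 hairpin transgene. The G:U hairpin was sequenced in nrpd1a mutant plants (libraries 2 and 18), ocp11 mutant plants (libraries 4 and 6) and Col-0 plants (libraries 12 and 13) in a second batch, and in Columbia plants (libraries 12 and 13) in a first batch. The perfectly paired WT hairpin was sequenced in 7 further libraries, nrpd1a 2 and 3, ocp11 10 and 11 and Col-0 15 in the second batch and Columbia 15 and 17 in the first, with only WT-stem counts. Neither the promoter of the transgene nor the number of plants behind a group is stated, so p-values measure the spread between libraries, which may be technical. If the numbers name transgene lines, the mutants carry other lines than Col-0, and background and line cannot be told apart. For the ocp11 libraries 4 and 6 the genotype label names the WT hairpin and the title the G:U hairpin. The title was followed, and both have reads on the GU stem. The labels of the first-batch G:U libraries name another target gene than the title, which says EIN2.

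Plant Dicer-like (DCL) enzymes cut double-stranded RNA into small interfering RNAs, with DCL4 cutting 21-nt, DCL2 22-nt and DCL3 24-nt products. G and U can pair in RNA, so a stem with changed bases can stay double-stranded although its arms no longer match as DNA would, and the changed bases allow a read to be assigned to an arm. NRPD1a forms the largest subunit of Pol IV, the polymerase that makes precursors of 24-nt siRNAs, and ARGONAUTE4, which is impaired in ocp11 plants, is loaded with 24-nt siRNAs. EIN2 acts in the membrane of the endoplasmic reticulum in ethylene signalling and is encoded by AT5G03280 on chromosome 5 from 787428 to 793404 (plus strand, TAIR10.1 assembly). The labels do not state which stretch of EIN2 forms the stem, and the tables hold counts by length, so neither read sequences nor positions are shown. Whether a read that fits both stems was counted once, in both blocks or not at all is not given in the sources used here. No library without a hairpin was used, so a level of misassigned reads cannot be given.

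Cross-stem reads were rare on both strands and their share differed widely between libraries. Of all sense reads, 0.583% and 0.265% were cross-stem in nrpd1a libraries 2 and 18, 0.0934% and 0.440% in ocp11 libraries 4 and 6, 1.24% and 1.23% in Col-0 libraries 12 and 13, and 0.890% and 0.652% in first-batch Columbia libraries 12 and 13. The median was 0.618%. The 4 Columbia libraries all lay above the 4 mutant libraries, and ocp11 library 4 was the lowest. The 95% Wilson interval, which covers counting error only, was 0.0847% to 0.103% for the lowest value and 1.17% to 1.32% for the highest. The intervals of these libraries did not touch. Those of nrpd1a library 2 (0.522% to 0.652%) and first-batch library 13 (0.618% to 0.689%), the closest mutant and Columbia libraries, overlapped.

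Of all antisense reads, 0.303% and 0.182% were cross-stem in nrpd1a libraries 2 and 18, 0.522% and 0.823% in ocp11 libraries 4 and 6, 0.167% and 0.262% in Col-0 libraries 12 and 13, and 0.375% and 0.701% in first-batch libraries 12 and 13. The median was 0.339%. The order of the libraries differed from that of the sense strand, with Col-0 library 12 highest for sense and lowest for antisense. The cross-stem antisense reads numbered 40 and 34 in nrpd1a, 526 and 1771 in ocp11, 38 and 70 in Col-0 and 71 and 218 in the first batch, so size profiles of this strand are coarse outside ocp11. In cross-stem sense reads the counts were 309 and 162 in nrpd1a, 394 and 3549 in ocp11, 1015 and 1441 in Col-0 and 830 and 1290 in the first batch. Within a library the antisense minus the sense share averaged -0.258 percentage points (SD 0.566, n = 8), with the antisense share higher in 3 libraries, and did not pass the test (exact sign-flip permutation test over libraries, two-sided, p = 0.250). The means were -0.266 in the second batch (n = 6) and -0.233 in the first (n = 2).

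The strand makeup of the cross-stem reads ranged more widely than that of the main-stem reads. Antisense reads made up 11.5% and 17.3% of cross-stem reads in nrpd1a, 57.2% and 33.3% in ocp11, 3.61% and 4.63% in Col-0 and 7.88% and 14.5% in the first batch. In the same libraries they made up 13.6% to 23.4% of main-stem reads. Both ocp11 libraries lay above this range. Both Col-0 libraries, nrpd1a library 2 and first-batch library 12 lay below it. The 4 runs listed for each second-batch library showed no difference past the threshold in how many reads were cross-stem. Over 12 library and strand combinations the lowest chi-square p was 0.0143 and the lowest Benjamini-Hochberg adjusted p 0.172. Both belonged to Col-0 library 13, whose runs held 10 to 29 cross-stem antisense reads.

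The cross-stem sense reads had a different size profile from the main-stem sense reads of the same libraries. They were poorer in 24-nt reads and richer in 18-nt, 19-nt, 22-nt and 25-nt reads in all 8 libraries, and their mean length was lower, with a difference of -0.42 nt. Among the 16 size shares compared (8 lengths on 2 strands, cross-stem against main-stem, exact sign-flip permutation test over libraries, two-sided, Benjamini-Hochberg adjusted over the 16), 6 (37.5%) passed the threshold of 0.05, 5 of them on the sense strand. The smallest p of this exact test is 0.00781. The 8 shares of a strand add up to the whole, so they are not independent. Within the 6 second-batch libraries alone all 6 differences kept their direction but none passed (adjusted p = 0.0833 each, exact permutation test), since 6 libraries allow no p under 0.0313, and the same held with the same-numbered Columbia libraries averaged.

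The 24-nt class has the length of DCL3 products, but which enzyme cut the reads of any length was not tested. In nrpd1a libraries 2 and 18 it held 10.4% and 3.09% of cross-stem sense reads, and in ocp11 libraries 4 and 6 4.31% and 11.0%. In Col-0 libraries 12 and 13 it held 12.7% and 9.65%, and in first-batch libraries 12 and 13 6.27% and 6.05%. Among main-stem sense reads it held 22.1% and 21.4%, 16.3% and 24.6%, 30.7% and 28.1% and 14.3% and 14.8% in the same libraries. The 2 classes did not overlap, the highest cross-stem value being 12.7% and the lowest main-stem value 14.3%. The difference was -13.6 percentage points (SD 4.24, n = 8, lower in 8 of 8 libraries, exact sign-flip permutation p = 0.00781, the smallest possible, adjusted p = 0.0208). It was -15.3 in the second batch and -8.37 in the first.

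The 22-nt class, the length of DCL2 products, held 20.4% and 13.6% of cross-stem sense reads in nrpd1a and 9.90% and 14.7% in ocp11. In Col-0 it held 17.1% and 17.9%, and in the first batch 8.80% and 13.3%. Main-stem sense reads of this length stayed within 6.46% to 9.15%. In first-batch library 12 the 2 classes were almost equal, at 8.80% and 8.51%, and the gap was widest in nrpd1a library 2, at 20.4% and 6.46%. The mean difference was 6.32 percentage points (SD 4.15, n = 8, higher in 8 of 8, exact sign-flip permutation p = 0.00781, adjusted p = 0.0208). It was 7.60 in the second batch and 2.48 in the first.

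The classes at both ends of the length range were enriched as well. Reads of 25 nt made up 4.85% and 8.02% of cross-stem sense reads in nrpd1a, 2.28% and 1.30% in ocp11, 2.17% and 1.94% in Col-0 and 5.18% and 3.18% in the first batch, and 0.180% to 0.563% of main-stem sense reads (median 0.353%), with no overlap. The mean difference was 3.24 percentage points (SD 2.28, n = 8). Reads of 18 nt made up 9.06% and 13.0% of cross-stem sense reads in nrpd1a, 3.05% and 1.86% in ocp11, 2.96% and 4.09% in Col-0 and 13.0% and 5.81% in the first batch, and 1.02% to 2.44% of main-stem sense reads. Their share differed by 5.07 percentage points (SD 4.24, n = 8), with the highest cross-stem shares in nrpd1a library 18 and first-batch library 12, both 13.0%. At 19 nt cross-stem sense reads held 2.91% and 6.17% in nrpd1a, 6.60% and 4.73% in ocp11, 7.88% and 10.2% in Col-0 and 9.16% and 3.57% in the first batch, against 2.66% to 5.24% of main-stem sense reads. For this length the difference was 2.84 percentage points (SD 2.08, n = 8), and it was smallest in nrpd1a library 2 (0.255) and first-batch library 13 (0.172). Each of these lengths was higher in 8 of 8 libraries, with the exact permutation p = 0.00781 and adjusted p = 0.0208. In the second and first batch the differences were 3.07 and 3.75 (25 nt), 4.27 and 7.46 (18 nt) and 3.11 and 2.04 percentage points (19 nt).

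The remaining lengths did not pass the test. The 21-nt class, the length of DCL4 products, was the largest one of cross-stem sense reads in every library. It held 43.7% and 40.7% in nrpd1a, 59.9% and 56.2% in ocp11, 45.8% and 41.5% in Col-0 and 44.7% and 57.1% in the first batch. Main-stem sense reads of this length made up 55.6% and 53.5%, 57.2% and 47.7%, 39.6% and 39.3% and 50.3% and 56.1% in the same libraries. Both nrpd1a libraries and first-batch library 12 were lower in their cross-stem reads, and the other 5 higher. Its difference was -1.22 percentage points (SD 8.02, n = 8, exact sign-flip permutation p = 0.672), and over 20 to 24 nt it was 5.51 (exact permutation p = 0.0391, adjusted p = 0.0781). The single libraries ranged from -12.8 in nrpd1a library 18 to 8.54 in ocp11 library 6. The 23-nt class held 2.27% and 3.70% of cross-stem sense reads in nrpd1a, 0.508% and 3.10% in ocp11, 4.24% and 5.14% in Col-0 and 2.65% and 3.10% in the first batch, against 2.54% to 5.06% of main-stem sense reads. Reads of 20 nt differed by -1.92 and those of 23 nt by -0.742 percentage points (exact permutation p = 0.102 and 0.188, adjusted p = 0.163 and 0.231, lower in 6 of 8 libraries each).

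The cross-stem share of sense reads can also be read by length, from the same counts, so it adds no separate support. At 25 nt it had a median of 5.09% and reached 11.3% in first-batch library 12, and at 18 nt the median was 3.03%. At 22 nt the median was 0.962%, at 19 nt 0.670%, at 21 nt 0.591%, at 23 nt 0.557%, at 20 nt 0.434% and at 24 nt 0.271%. The share at 24 nt ranged from 0.0248% in ocp11 library 4 to 0.517% in Col-0 library 12, against 0.0979% to 1.43% at 21 nt. The classes of 18 nt and 25 nt rest on few reads, with 12 to 108 and 9 to 46 cross-stem sense reads per library. In mean length, cross-stem sense reads were shorter than main-stem sense reads in 8 of 8 libraries, with a difference of -0.42 nt (SD 0.138, exact sign-flip permutation p = 0.00781, adjusted over the 2 strands p = 0.0156). The difference was -0.457 nt in the second batch and -0.307 nt in the first. The call ended with the second batch alone and with the same-numbered Columbia libraries averaged (-0.418 nt), at an adjusted p = 0.0625 of the exact permutation test in each.

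Among cross-stem antisense reads the 23-nt class was the one that passed, and it was lower than among main-stem antisense reads in all 8 libraries. It held 2.50% and 2.94% of cross-stem antisense reads in nrpd1a libraries 2 and 18, 4.75% and 10.11% in ocp11 libraries 4 and 6, 5.26% and 4.29% in Col-0 libraries 12 and 13 and 4.23% and 7.80% in first-batch libraries 12 and 13. Among main-stem antisense reads it held 13.4% and 13.2%, 8.54% and 25.4%, 10.4% and 10.9% and 18.9% and 11.9% in the same libraries. Each library lay lower in its cross-stem reads, and across libraries the ranges met only through ocp11, where the cross-stem 10.11% of library 6 exceeded the main-stem 8.54% of library 4. The mean difference was -8.85 percentage points (SD 4.61, n = 8, exact sign-flip permutation p = 0.00781, adjusted p = 0.0208). It was -8.68 in the second batch and -9.36 in the first. In nrpd1a, Col-0 and first-batch library 12 the cross-stem 23-nt class rests on 1 to 3 reads per library. In the 5 libraries with at least 50 cross-stem antisense reads the difference was -8.89 percentage points (exact permutation p = 0.0625, the smallest that 5 libraries allow, adjusted p = 0.100).

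The 21-nt class was lower among cross-stem antisense reads in 7 of 8 libraries but did not pass after adjustment. Its shares were 55.0% and 41.2% in nrpd1a, 40.7% and 27.3% in ocp11, 36.8% and 32.9% in Col-0 and 26.8% and 34.9% in the first batch, against 40.5% to 54.9% of main-stem antisense reads. The difference was -10.6 percentage points (SD 8.80, n = 8, exact sign-flip permutation p = 0.0234, adjusted p = 0.0536). The exception was nrpd1a library 2, and without it the value was -13.4 (exact permutation test, adjusted p = 0.0313). Within the batches the difference was -8.18 in the second and -17.7 in the first.

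The 22-nt class of cross-stem antisense reads differed widely between libraries. It held 25% and 26.5% in nrpd1a libraries 2 and 18 and 16.0% and 11.6% in ocp11 libraries 4 and 6, against 7.89% and 7.14% in Col-0 libraries 12 and 13 and 2.82% and 12.8% in the first batch. Main-stem antisense reads held 4.62% to 9.99% at this length in all libraries. All 4 mutant libraries and first-batch library 13 thus had more 22-nt reads in the cross-stem than in the main-stem class, and the other 3 Columbia libraries had fewer. The nrpd1a values rest on 10 and 9 reads, with Wilson intervals of 14.2% to 40.2% and 14.6% to 43.1%, and the ocp11 values on 84 and 205 reads. Over the 8 libraries the difference was 6.08 percentage points (SD 8.74, exact sign-flip permutation p = 0.102, adjusted p = 0.163).

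The 24-nt class, lower in cross-stem sense reads, did not pass among antisense reads. It held 15.0% and 11.8% in nrpd1a, 10.3% and 35.9% in ocp11, 18.4% and 18.6% in Col-0 and 9.86% and 11.9% in the first batch, against 7.95% to 20.3% of main-stem antisense reads. The difference was 2.55 percentage points (SD 7.08, n = 8, higher in 4 libraries, exact sign-flip permutation p = 0.406). In ocp11 library 6 the 24-nt class was the largest of its cross-stem antisense reads, 35.9% (Wilson interval 33.7% to 38.2%, 636 reads) against 27.3% at 21 nt. Reads of 20 nt ranged from 2.50% in nrpd1a library 2 to 32.4% in first-batch library 12, where they were the largest class, against 5.68% to 13.4% of main-stem antisense reads. The lengths 18, 19, 20 and 25 nt differed by 1.42, 3.64, 4.89 and 0.823 percentage points, with exact permutation p from 0.0703 to 0.406. Without nrpd1a library 2 the 18-nt difference passed, at 1.87 (exact permutation test, adjusted p = 0.0313). No cross-stem antisense read of 18, 19 or 25 nt was counted in nrpd1a library 2, which at 0 of 40 reads allows a share of up to 7.50% at each length. The mean length differed by -0.171 nt (SD 0.268, n = 8, exact permutation p = 0.117).

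Set against each other, cross-stem antisense and sense reads gave no length that passed after adjustment (0 of 8 lengths, 0%, exact sign-flip permutation test, 1 with an unadjusted p under 0.05). The 24-nt share was higher in cross-stem antisense than in cross-stem sense reads in 8 of 8 libraries, by 8.54 percentage points (SD 6.87, exact permutation p = 0.00781, the smallest possible, adjusted p = 0.0625). A lone p at this smallest value cannot pass over 8 lengths. Over 20 to 24 nt the 24-nt and the 21-nt differences passed, at 9.37 and -16.4 percentage points (exact permutation test, adjusted p = 0.0391 each). The 21-nt difference over all lengths was -11.8 percentage points (SD 13.1, n = 8, exact permutation p = 0.0625).

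In plants with the WT hairpin, sense reads on the WT stem are main products of the hairpin, so the same stem sequence can be compared between plants. Cross-stem sense reads of G:U plants held fewer 24-nt reads and more 18-nt, 22-nt and 25-nt reads than WT-stem sense reads of WT hairpin plants. Of the 8 lengths, 4 (50%) passed (exact stratified permutation test within background and batch, two-sided, Benjamini-Hochberg over the 8). The 24-nt share averaged 7.93% in G:U plants and 16.2% in WT hairpin plants over the 4 pairings of background and batch, a difference of -8.24 percentage points (SD over these 5.55, adjusted p of the exact test 0.0154). It was -5.74 in nrpd1a, -14.2 in ocp11, -11.2 in Col-0 and -1.81 in the first batch. In the first batch the ranges overlapped, with 6.27% and 6.05% against 4.94% and 11.0%.

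The 22-nt share averaged 14.5% in G:U plants and 9.75% in WT hairpin plants (difference 4.70, SD 2.85, adjusted p of the exact test 0.0123). It differed by 8.44 in nrpd1a, 4.26 in ocp11, 4.60 in Col-0 and 1.52 percentage points in the first batch. In the first batch the ranges overlapped, with 8.80% and 13.3% in G:U libraries 12 and 13 against 9.23% and 9.78% in WT hairpin libraries 15 and 17, so G:U library 12 lay below both. At 25 nt every G:U library (1.30% to 8.02%) lay above every WT library (0.155% to 0.899%), with a mean difference of 3.29 percentage points (exact test adjusted p = 0.0123). The 18-nt share averaged 6.60% in G:U plants and 2.46% in WT hairpin plants (difference 4.14, exact test adjusted p = 0.0123). It differed by 8.64 percentage points in nrpd1a, 0.471 in ocp11, 1.96 in Col-0 and 5.496 in the first batch. In ocp11 the ranges overlapped, with 3.05% and 1.86% in G:U libraries against 2.22% and 1.75% in WT hairpin libraries. The 18-nt call ended within the second batch (3.69, exact test adjusted p = 0.0556) and without first-batch WT hairpin library 15 (4.25, 0.0679) or 17 (4.03, 0.0802). All 4 calls ended without Col-0 WT hairpin library 15, which also takes the Col-0 G:U libraries out of the test. The differences were then -7.26 (24 nt), 4.74 (22 nt), 3.79 (25 nt) and 4.87 (18 nt), and the exact test gave adjusted p from 0.0741 to 0.0926. At 19, 20, 21 and 23 nt the differences were -1.84, -2.08, 0.539 and -0.518 percentage points and did not pass (exact permutation p from 0.231 to 0.881).

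The mutant plants put the question whether cross-stem reads vary with the loss of NRPD1a or ARGONAUTE4 function. The cross-stem share of sense reads lay lower in all 4 mutant libraries than in Col-0. It averaged 0.424% ± 0.225 in nrpd1a and 0.267% ± 0.245 in ocp11, against 1.24% ± 0.00535 in Col-0 of the same batch (SD, n = 2 each). The 4 mutant libraries together averaged 0.346%, a difference of -0.890 percentage points (exact permutation test of 4 against 2, p = 0.0667, the smallest this design allows, adjusted over 10 measures p = 0.583). The ranges did not overlap, but no comparison of backgrounds within the second batch can pass the threshold. Mutant and Col-0 libraries also lay apart in the mean length (21.6 against 21.1 nt) and the 22-nt share (19.8% against 7.52%) of cross-stem antisense reads. Both of these overlapped once the first-batch Columbia libraries were added. Over 20 to 24 nt the mean length differed by 0.0586 nt and the 22-nt share by 11.4 percentage points (exact permutation p = 0.933 and 0.133). The other measures overlapped within the second batch. With the first-batch Columbia libraries added, which ignores the batch, the sense share differed by -0.658 percentage points (exact permutation test of 4 against 4, p = 0.0286, adjusted p = 0.286). Counted per 100 antisense reads on the same WT stem, cross-stem sense reads numbered 2.35 and 0.871 in nrpd1a and 0.393 and 1.66 in ocp11, against 4.47 and 5.41 in Col-0 and 4.40 and 4.18 in the first batch. With this denominator, which does not include GU-stem reads, the 4 mutant libraries lay below all Columbia libraries. The ratio was chosen after seeing the data and keeps the same cross-stem counts, so it is not separate support. The ocp11 libraries had the most stem reads, 522355 and 1020996, against 66189 to 228900 in the other G:U libraries. Total depth is unknown, and its part in the result was not tested.

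The cross-stem share of antisense reads showed no such separation of both mutants from Col-0. It averaged 0.672% ± 0.212 in ocp11 and 0.243% ± 0.0852 in nrpd1a, against 0.215% ± 0.0674 in Col-0 (SD, n = 2 each). The ocp11 libraries lay above both Col-0 libraries, a difference of 0.458 percentage points, and the nrpd1a libraries overlapped with Col-0 (difference 0.0281). The nrpd1a difference turned to -0.133 with the first-batch Columbia libraries added, to -0.0322 without nrpd1a library 2 and to -0.0196 without Col-0 library 12. An exact permutation test of 2 against 2 cannot go below p = 0.333, the value found for ocp11. First-batch library 13, at 0.701%, lay between the ocp11 libraries. Per 100 sense reads on the same GU stem, cross-stem antisense reads numbered 0.0759 and 0.0558 in nrpd1a and 0.125 and 0.221 in ocp11, against 0.0470 and 0.0606 in Col-0 and 0.0768 and 0.111 in the first batch. Here both ocp11 libraries lay above all others, with 0.125 in ocp11 library 4 close to 0.111 in first-batch library 13. This ratio too was chosen after seeing the data.

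The size profile of cross-stem reads is given by background as a description, since n = 2 each allows no test to pass. The 21-nt share of cross-stem sense reads was 58.1% ± 2.59 in ocp11 and 42.2% ± 2.08 in nrpd1a, against 43.7% ± 3.05 in Col-0. First-batch Columbia libraries held 44.7% and 57.1%, the latter between the ocp11 libraries. The 24-nt share of cross-stem sense reads was 6.72% ± 5.14 in nrpd1a and 7.65% ± 4.72 in ocp11, against 11.2% ± 2.17 in Col-0, with overlap in both mutants. First-batch Columbia libraries, at 6.16% ± 0.155, lay below both mutant means. The 24-nt share of main-stem sense reads was also lower in the mutants than in Col-0 of the same batch, at 16.3% to 24.6% against 30.7% and 28.1%. First-batch Columbia libraries, at 14.3% and 14.8%, lay below every mutant library. Cross-stem antisense reads of 22 nt made up 25.7% ± 1.04 in nrpd1a and 13.8% ± 3.11 in ocp11, against 7.52% ± 0.532 in Col-0. For both mutants together that difference was 12.2 percentage points (exact permutation test of 4 against 2, p = 0.133, adjusted p = 0.583). First-batch Columbia libraries held 2.82% and 12.8% at 22 nt of cross-stem antisense reads, the latter between the ocp11 libraries.

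The 2 batches of Columbia plants were compared in the same way. The cross-stem share averaged 1.24% ± 0.00535 in the second and 0.771% ± 0.168 in the first batch for sense reads, and 0.215% ± 0.0674 and 0.538% ± 0.231 for antisense reads (SD, n = 2 each). The differences of 0.465 and -0.323 percentage points had the smallest p of an exact permutation test of 2 against 2, 0.333. In both strands the batches did not overlap, but a lack of overlap was common among the 10 measures compared. It also held for the mean length and the 22-nt and 24-nt shares of cross-stem sense reads. Among cross-stem antisense reads it held for the 24-nt share. The 21-nt shares of both strands and the mean length and 22-nt share of cross-stem antisense reads overlapped. Between nrpd1a and Col-0 a lack of overlap held for the cross-stem share of sense reads. It also held there for the mean length and the 21-nt, 22-nt and 24-nt shares of cross-stem antisense reads. Between ocp11 and Col-0 it held for both cross-stem shares and the 21-nt and 22-nt shares of cross-stem sense reads. It also held there for the mean length and 22-nt share of cross-stem antisense reads.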

How the data were processed

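Small RNA reads were deposited as raw counts by strand, stem and length for each library, per the file headers. The submitters' processing notes name cutadapt, Bowtie 1.0 and the build TAIR10. How many mismatches were allowed, and how reads that fit both stems were handled, is not given in those sources. The second table lists 4 entries for each of its 11 libraries. They were taken as runs of 1 library and summed. The first table holds 4 libraries.

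Of 20 labelled samples, 15 have counts, and the 5 with a GUS hairpin were not analysed here. A table row of nrpd1a with the WT hairpin is numbered 13 and its sample 3. Shares were taken over 18 to 25 nt and need no library total. G:U libraries held 66189 to 1020996 stem reads. Paired differences were tested with exact sign-flip permutation tests over libraries and groups with exact (stratified) permutation tests, two-sided, with Benjamini-Hochberg adjustment and a threshold of 0.05 (Python 3.11.15, numpy 2.4.6, scipy 1.17.1). The sign-flip test was tried on simulated sense profiles with the read counts of the libraries, and the stratified test on a small made-up set. Antisense profiles and group contrasts were not simulated. The tables hold no genes, so the items named are lengths: those of 21, 22, 23 and 24 nt and any other that passed are given per library, and the rest as ranges. The members, lengths and tests were chosen with earlier results of these data known. Alternatives were other lengths, single libraries left out, the second table alone, averaged same-numbered libraries, a minimum of 50 reads, and, chosen after seeing the data, other denominators, log2 ratios, 21-nt reads alone and crossed numbers.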

Additional observations from a re-analysis of the deposited data

Results flagged for a closer look

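These results were picked out because all libraries of a background moved one way and all libraries of another the opposite way, as cross-stem minus main-stem differences within a library. With 2 libraries against 2 an exact permutation test cannot go below p = 0.333, and with 4 against 2 not below 0.0667. No difference here therefore passed a test. Because of this choice the groups of each item lie fully apart, so the p-values follow from the choice and lend no support.

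At 22 nt of antisense reads the cross-stem share exceeded the main-stem share by a mean of 17.7 percentage points in nrpd1a and 8.30 in ocp11, and differed by -2.02 in Col-0. The gap to Col-0 was 19.7 for nrpd1a, 10.3 for ocp11 and 15.0 for both (exact permutation p = 0.0667). At 21 nt of sense reads the difference was -12.4 in nrpd1a, against 5.62 in ocp11 and 4.20 in Col-0, a gap of -17.99 to ocp11 and of -16.6 to Col-0. At 19 nt of antisense reads it was -3.58 in nrpd1a, against 2.77 in ocp11 and 10.2 in Col-0 (gaps of -6.35 and -13.7). At 24 nt of antisense reads it was -1.29 in nrpd1a, against 6.90 in Col-0 (gap -8.19). The nrpd1a and Col-0 values of antisense reads rest on 34 to 70 cross-stem reads per library. In first-batch Columbia libraries 12 and 13 the difference was -5.60 and 0.977 at 21 nt of sense reads. At 22 nt of antisense reads it was -4.77 and 5.44 in these libraries. It was 8.25 and 2.21 there at 19 nt and 1.91 and -0.830 at 24 nt of antisense reads.

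At 25 nt of antisense reads the difference was 0.602 in ocp11 and -0.655 in nrpd1a, against -0.580 in second-batch and 3.93 in first-batch Columbia libraries. The gaps were 1.18 for ocp11 to Col-0, -1.26 for nrpd1a to ocp11 and -4.51 for the second to the first batch of Columbia. Cross-stem antisense reads of 25 nt were at 0 in both nrpd1a and both Col-0 libraries. The cross-stem share of antisense minus that of sense reads was 0.405 percentage points in ocp11 and -0.182 in nrpd1a, against -1.02 in Col-0. The gap was 1.43 for ocp11 to Col-0 and -0.587 for nrpd1a to ocp11.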

How the results depend on the processing

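With only 6 values, exact sign-flip p cannot go below 0.0313, so 6 such calls adjust to 0.0833 over 16 tests. With the second table alone, and with the same-numbered Columbia libraries averaged as a replicate block, 0 of 16 size shares passed, although all 6 differences kept their direction, and the mean length of cross-stem minus main-stem sense reads differed by -0.457 and -0.418 nt (exact permutation test, adjusted p = 0.0625 each). The labels do not say that the numbers pair these libraries, their deviations correlated at r = -0.555 over 32 size shares, and crossed numbers also gave 0 calls. Between the batches the block left the differences at 0.465 and -0.323 percentage points (exact sign-flip p = 0.5). Over 20 to 24 nt, where 18, 19 and 25 nt drop out, 3 cross-stem against main-stem shares, 2 antisense against sense shares and 2 WT-stem sense shares passed. Leaving out single libraries, the counts that passed ranged from 6 to 8 (cross-stem against main-stem) and from 0 to 4 (WT-stem sense, 0 without the Col-0 WT hairpin library), and the sense 24-nt difference from -14.4 to -12.9 percentage points. Values of differences that did not pass turned sign as follows, and the cause was not tested. Over 20 to 24 nt the sense 21-nt difference was 5.51 and the mutant difference in 21-nt cross-stem antisense reads -0.260. In the second table alone the antisense 25-nt difference was -0.211, the 22-nt antisense minus sense difference 0.0718 (1.21 with averaged numbers) and the WT-stem differences at 20 and 21 nt 0.415 and -1.80. With first-batch controls added, the mutant differences were 0.00591 nt in mean length of sense, 0.369 at 22 nt of sense and 3.54 at 24 nt of antisense cross-stem reads, and the nrpd1a difference in the antisense cross-stem share was -0.133. Without single libraries, the sense 21-nt difference ranged from -2.61 to 0.440, the 22-nt antisense minus sense difference from -2.69 to 0.686, the mutant difference at 24 nt of antisense from -6.15 to 2.40, the nrpd1a antisense share difference from -0.0322 to 0.0883 and the WT-stem 21-nt difference from -1.01 to 2.08. The sense cross-stem share stayed lower in the mutants under every alternative run, from -0.970 to -0.658 percentage points in shares over several lengths, -1.05 at 21 nt and -2.13 as a log2 ratio.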
